A study of Mus musculus with 8 samples.

Results

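Genes of fetal macrophages and other leukocytes were followed in RNA sequencing of the embryonic mouse lung. The 33 genes were taken by name, with earlier results of these data known, and all 33 were found among the 55401 genes of the count table. Of these, 31 had enough counts to be tested, among 15788 genes tested in all, and the scavenger receptor gene Cd163 and the phosphatidylserine receptor gene Timd4 did not. By role they comprise general leukocyte genes, growth factor and chemokine receptors, transcription factors, complement chains, Fc receptors with their adaptors, scavenger receptors, phagosome proteins and other macrophage-enriched genes.

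The lungs were taken at E13.5. The mutant group held 4 libraries labelled Tbx4tetOcre_MyrfE6, and the control group held 4 libraries labelled cre control. The labels do not explain the MyrfE6 allele, do not say which transgenes the cre controls carried and give neither an induction schedule nor the number and sex of the embryos in a library. Myrf encodes a membrane-bound transcription factor of mesothelium and of myelinating glia, Tbx4 is a T-box gene of lung mesenchyme, and tetO is the operator of tetracycline-regulated transgenes. Since nothing states that replicates are separate embryos or litters, p-values measure the spread between these libraries.

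Macrophages enter the lung early in development, first from yolk sac progenitors and then from fetal liver monocytes, well before the lung breathes air. They depend on signalling through Csf1r, take their identity from the transcription factor PU.1, which Spi1 encodes, and clear dead cells and debris with scavenger receptors, Fc receptors and complement C1q. Some genes used to find macrophages, such as Mrc1, Stab1 and Maf, are also made by lymphatic or sinusoidal endothelium, and Pf4 is also a platelet gene. In RNA of a whole organ, fewer cells of a type and less RNA per cell cannot be told apart.

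Total counts were 25157303, 48679134, 20447353 and 17819285 in mutant replicates 1 to 4, and 19032389, 17847958, 17799899 and 17804975 in control replicates 1 to 4. At the lowest total, 3 counts correspond to 0.169 CPM (a gene's counts per megacount of its library), a floor that covers counting error only. Myrf averaged 88.4 ± 4.17 CPM in mutant and 114 ± 5.64 CPM in control libraries (SD, n = 4 each; log2 fold change -0.37, SE 0.044, adjusted p = 0.000211, edgeR quasi-likelihood test). The values sum all exons of Myrf. Lung genes were high in every library: the summed level of Nkx2-1, Sftpc, Sox9, Epcam, Foxf1, Tbx4, Tbx5 and Wnt2 lay between 1220 and 1250 CPM in mutant and between 1260 and 1290 CPM in control libraries, and Wnt2 among them fell (log2 fold change -0.33, adjusted p = 0.00852, edgeR). The sex-linked transcripts differed between the groups. Mutant replicates 1 and 2 had Y-linked genes at 133 and 143 CPM and Xist at 0.591 and 0.369 CPM, control replicates 2 and 3 had Y-linked genes at 0 and 0.0565 CPM and Xist at 874 and 868 CPM, and the 4 other libraries had both.

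Promoter sequence is shown for 4 members on which the results turn: Mrc1, the member that fell, Stab1, a receptor of the same kind, Pf4, the member with the largest fold change in size when all 8 libraries entered, and C1qb, 1 of the complement chains. Each line gives the 250 bases before the RefSeq gene start on GRCm38.p6, 5′ to 3′ on the strand of the gene, with capitals marking the PU.1 core GAGGAA or its reverse complement TTCCTC.
Mrc1 (chr2:14229164-14229413, plus strand): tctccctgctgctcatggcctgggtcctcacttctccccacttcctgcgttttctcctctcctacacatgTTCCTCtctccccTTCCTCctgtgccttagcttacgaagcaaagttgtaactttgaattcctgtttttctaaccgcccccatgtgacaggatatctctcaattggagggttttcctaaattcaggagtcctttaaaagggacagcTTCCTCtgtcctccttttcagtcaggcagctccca
Stab1 (chr14:31168642-31168891, minus strand): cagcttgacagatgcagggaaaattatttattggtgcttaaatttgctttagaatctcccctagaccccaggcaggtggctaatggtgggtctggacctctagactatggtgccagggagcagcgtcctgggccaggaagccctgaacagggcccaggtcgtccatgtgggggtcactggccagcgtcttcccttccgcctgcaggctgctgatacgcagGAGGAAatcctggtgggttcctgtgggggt
Pf4 (chr5:90772185-90772434, plus strand): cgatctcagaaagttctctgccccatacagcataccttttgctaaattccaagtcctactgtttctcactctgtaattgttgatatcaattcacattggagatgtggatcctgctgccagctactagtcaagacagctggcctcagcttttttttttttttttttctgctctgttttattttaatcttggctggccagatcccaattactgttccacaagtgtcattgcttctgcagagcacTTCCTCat
C1qb (chr4:136886201-136886450, minus strand): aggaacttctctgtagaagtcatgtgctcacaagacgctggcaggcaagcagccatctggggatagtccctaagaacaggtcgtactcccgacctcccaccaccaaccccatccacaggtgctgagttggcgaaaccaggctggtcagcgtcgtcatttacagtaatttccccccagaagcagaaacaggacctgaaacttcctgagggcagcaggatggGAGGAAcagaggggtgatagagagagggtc
The Mrc1 window held 3 cores, starting at -180, -167 and -35 from the gene start. The windows of Stab1, Pf4 and C1qb held 1 each, at -30, -8 and -30. RefSeq windows of 300 bases, from 250 before to 50 after the start, were found for 25 members. The core GAGGAA was present on either strand in 16 of 25 members, 64.0%, against 30.3% of 11332 tested genes with a window. The longer PU.1 motif GAGGAAGT, which contains the core, was present in 5 of 25 members, 20%, against 3.49% of the tested genes; they were C1qc, Pf4, F13a1, Cd53 and Ctss. These are matches of letters and describe the windows alone.

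Of the macrophage and leukocyte genes 1 of 31 tested members changed between mutant and control lungs, 3.23%, beside 1.49% of all genes tested (236 of 15788, edgeR quasi-likelihood test, adjusted p below 0.05). Mrc1, the mannose receptor of tissue macrophages, fell by 18.1%. The other 30 did not pass the test. Log2 fold changes were negative in 20 members, 64.5%, and positive in 11; they were negative in 50.0% of all genes tested. The members' median log2 fold change was -0.05, and that of all genes tested was 0.00. Among all genes tested 0.931% were called lower and 0.564% higher.

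Of the 31 members, 18 had log2 fold changes of 0.1 or less in size and 5 had more than 0.2 (Mrc1, Pf4, F13a1, Lyz2 and Cybb). At an unadjusted p below 0.05 stood 4 members, 12.9%, close to the 13.9% of all genes tested; they were Mrc1, Maf, Pf4 and Stab1. Mutant and control libraries did not overlap in 2 members, Mrc1 and Trem2, which is 6.45% of the members beside 7.37% of all genes tested. Both were lower in mutants, so 6.45% of the members were lower without overlap, beside 4.06% of all genes tested. For 15 of 31 members the 95% interval of the fold change lay within 1.25-fold in either direction, for 26 within 1.5-fold and for 31 within 2-fold. The plot of fold changes with their intervals shows how the widths differ between members.

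**Figure D1:**
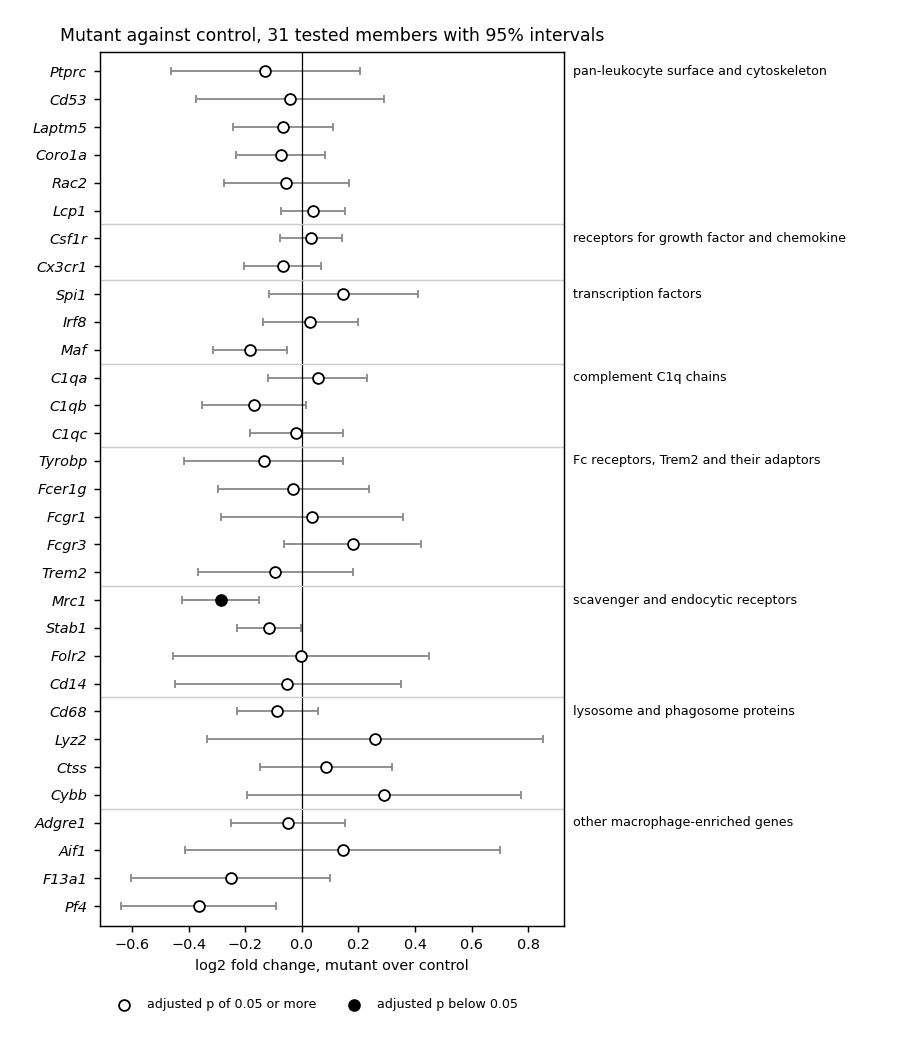
Log2 fold change of mutant over control (x axis) for the 31 tested members, grouped by role from top to bottom, with 95% intervals from the edgeR fit as bars; the filled point marks an adjusted p below 0.05. Mrc1 at -0.29 is the filled point, and the intervals of Lyz2, Cybb, Aif1, F13a1 and Pf4 are those that reach past 0.585, a change of 1.5-fold, in size.

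Mrc1 measured 25.5, 24.1, 26.1 and 24.0 CPM in mutant replicates 1 to 4, against 30.3, 27.1, 32.9 and 31.2 CPM in control replicates 1 to 4. Every mutant library lay below every control library, the nearest values being 26.1 CPM in mutant replicate 3 and 27.1 CPM in control replicate 2. The mean was 24.9 ± 1.06 CPM in mutant and 30.4 ± 2.44 CPM in control lungs (log2 fold change -0.29, SE 0.0649, adjusted p = 0.0334, edgeR quasi-likelihood test). The gene (ENSMUSG00000026712.3) lies on chromosome 2 from 14229392 to 14332057 on the plus strand of GRCm38 and encodes a lectin receptor that takes up mannosylated proteins and collagen fragments; its promoter window is the first of the 4 shown. Its call was lost in 8 of 17 alternatives, among them 5 that left out 1 library: the adjusted p was 0.122 without control replicate 3, 0.111 without mutant replicate 2, 0.0815 without control replicate 1, and 0.0516 both without control replicate 4 and without mutant replicate 1 (0.00289 to 0.234 over all its alternatives). With a covariate for the Y-linked level it was 0.124 (log2 fold change -0.30), and in a fit of mutant replicates 3 and 4 and control replicates 1 and 4, the libraries where Xist and the Y-linked genes were both found, it was 0.234 (log2 fold change -0.29).

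The other scavenger and endocytic receptors did not pass the test. Stab1, which encodes stabilin-1, a receptor for modified lipoproteins and extracellular debris, measured 150, 142, 150 and 166 CPM in mutant replicates 1 to 4, against 155, 156, 167 and 179 CPM in control replicates 1 to 4. The groups overlapped through mutant replicate 4 (log2 fold change -0.12, SE 0.0529, adjusted p = 0.347, edgeR). Folr2, the folate receptor of tissue-resident macrophages, ranged from 1.24 to 1.52 CPM in mutant and from 1.06 to 1.69 CPM in control libraries. Cd14, the co-receptor for bacterial lipopolysaccharide, ranged from 1.37 to 1.66 CPM in mutant and from 1.41 to 1.75 CPM in control libraries. Both receptors overlapped between the groups. Timd4 had 3 to 12 counts per library, at 0.195 to 0.246 CPM in mutant and 0.169 to 0.676 CPM in control libraries. Cd163 had 0 to 2 counts per library, under the floor of 3 counts, so a difference in this receptor was not detectable at this depth. All 4 tested genes of this group had negative log2 fold changes (median -0.08), with Folr2 nearest to even at -0.003 (SE 0.215). The sign of Folr2 turned in 9 of 17 alternatives. The 6 genes together summed to 169 to 193 CPM in mutant and 187 to 213 CPM in control libraries.

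Mrc1 and Stab1 are shared with lymphatic and sinusoidal endothelium, so endothelial genes are given beside them. Of 7 tested lymphatic and sinusoidal genes 0 passed in edgeR, and 5 of them had positive log2 fold changes (median 0.09). The 1 at an unadjusted p below 0.05 was Stab2, the stabilin-2 gene of sinusoidal and lymphatic endothelium and a paralog of Stab1, at 5.44, 6.64, 6.59 and 7.09 CPM in mutant replicates 1 to 4, against 3.54, 5.47, 4.41 and 5.07 CPM in control replicates 1 to 4. Its groups overlapped through mutant replicate 1 and control replicate 2 (log2 fold change 0.48, SE 0.135, adjusted p = 0.0815, edgeR). The 8 listed genes, 7 of them tested, summed to 163 to 174 CPM in mutant and 160 to 172 CPM in control libraries, and Mmrn1 and Flt4, those with the highest counts, had log2 fold changes of 0.09 and -0.10. The hyaluronan receptor gene Lyve1, which macrophages and lymphatic vessels share, had a log2 fold change of -0.001 (SE 0.0601). All 10 blood endothelial genes had positive log2 fold changes (median 0.08), and 1 of them rose, Emcn, the endomucin gene of venous and capillary endothelium (log2 fold change 0.19, SE 0.0469, adjusted p = 0.0479, edgeR), which failed in 11 of 17 other settings, among them 7 of the 8 that left out 1 library, with adjusted p from 0.00343 to 0.65 over all. Their part in the values of Mrc1 and Stab1 was not tested.

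**Figure D2:**
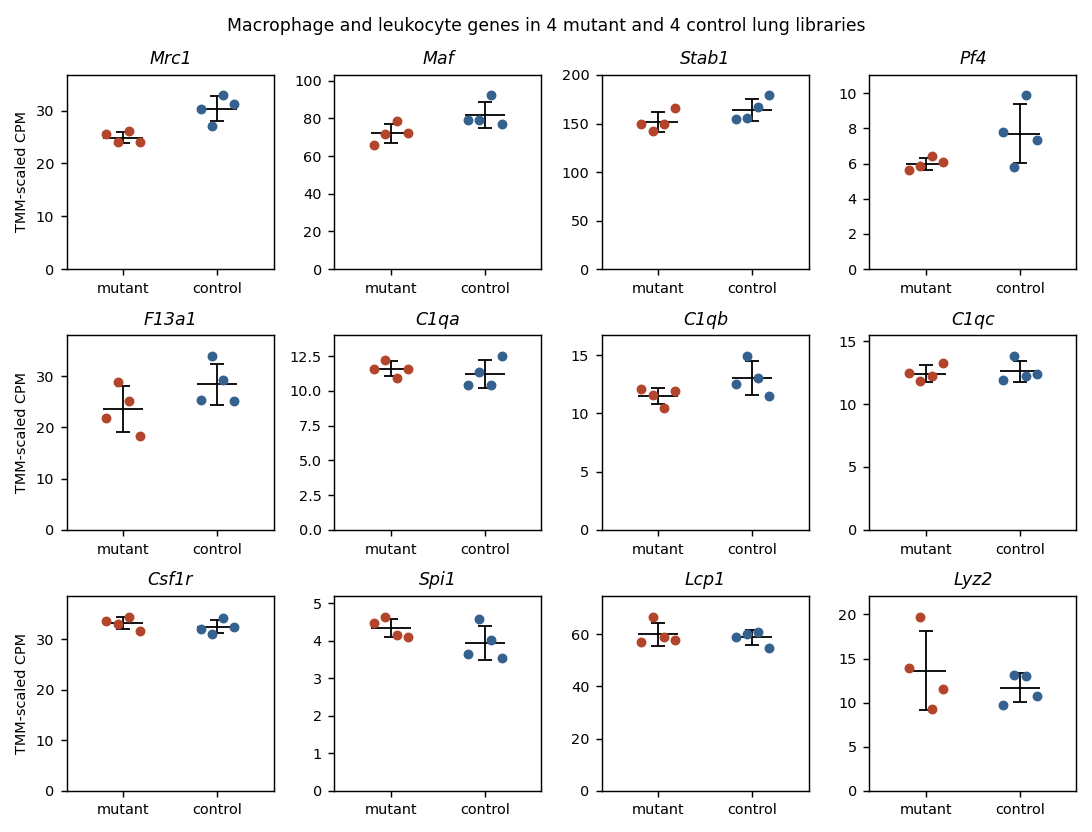
TMM-scaled CPM (y axes, from 0) of 12 members in each mutant library (left, 4 points) and each control library (right, 4 points), with the group mean and SD as the black bar and whiskers. Mrc1 separates the groups at 24.0 to 26.1 CPM in mutant and 27.1 to 32.9 CPM in control libraries, and the other 11 genes overlap.

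The genes shared by all leukocytes did not pass in any case, with 5 of 6 negative. Ptprc, the CD45 phosphatase found on leukocytes, measured 2.29, 1.89, 2.24 and 2.31 CPM in mutant replicates 1 to 4, against 2.43, 2.31, 2.20 and 2.48 CPM in control replicates 1 to 4. The groups overlapped, with mutant replicate 2 the lowest of the 8 (log2 fold change -0.13, 95% interval -0.46 to 0.21). Coro1a, an actin-binding coronin of leukocytes, ranged from 15.1 to 18.7 CPM in mutant and from 17.4 to 18.4 CPM in control libraries. Laptm5, a lysosomal membrane protein, ranged from 15 to 18 CPM in mutant and from 14.6 to 18.8 CPM in control libraries. Both genes overlapped between the groups. Rac2, a small GTPase of blood cells, and the tetraspanin gene Cd53 had log2 fold changes of -0.06 (SE 0.105) and -0.04 (SE 0.159). Lcp1, the actin-bundling protein L-plastin, was the member of this group with a positive value, at 60.1 ± 4.41 CPM in mutant and 58.8 ± 2.8 CPM in control lungs (log2 fold change 0.04, 95% interval -0.07 to 0.15). Together the 6 genes summed to 101 to 113 CPM in mutant and 99.8 to 109 CPM in control libraries.

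Csf1r, the receptor for the macrophage growth factors CSF1 and IL34, was close to even between the groups. It measured 33.6, 33, 34.4 and 31.7 CPM in mutant replicates 1 to 4, against 32, 31, 34.2 and 32.5 CPM in control replicates 1 to 4. The groups overlapped over most of their range (log2 fold change 0.03, 95% interval -0.08 to 0.14, adjusted p = 0.85, edgeR). Cx3cr1, the fractalkine receptor, averaged 18.9 ± 0.767 CPM in mutant and 19.8 ± 0.688 CPM in control lungs (log2 fold change -0.07, SE 0.0644). The ligands were read from a list of 12 growth factors and recruiting signals, of which 10 were tested: 0 passed in edgeR, 2 were at an unadjusted p below 0.05 (Gas6 and Tgfb1), and the list's median log2 fold change was -0.02. Tgfb1 stood at 0.17 on the log2 scale (SE 0.0635, adjusted p = 0.221). Csf1 had a log2 fold change of -0.09 (SE 0.0651), Il34 of 0.16 (SE 0.399) and Cx3cl1 of 0.17 (SE 0.0963). The chemokine gene Cxcl12 and the bridging ligand gene Gas6, its members with the highest counts, had log2 fold changes of -0.04 (SE 0.0336) and -0.13 (SE 0.0422, adjusted p = 0.152).

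Among the 3 transcription factor genes, Maf had the largest change in size and did not pass. Maf, which encodes c-MAF and acts in mature tissue macrophages as well as in other cells of the lung, measured 66.0, 71.6, 78.5 and 72.4 CPM in mutant replicates 1 to 4, against 79.2, 79.1, 92.2 and 76.8 CPM in control replicates 1 to 4. The groups overlapped through mutant replicate 3 and control replicate 4 (log2 fold change -0.18, SE 0.0607, adjusted p = 0.164, edgeR). The log2 fold change was -0.12 without control replicate 3, -0.10 (adjusted p = 0.647) with the Y-linked covariate and -0.043 (adjusted p = 0.929) in the fit of mutant replicates 3 and 4 and control replicates 1 and 4. Spi1, which encodes PU.1, measured 4.46, 4.63, 4.15 and 4.11 CPM in mutant replicates 1 to 4, against 3.64, 4.57, 4.01 and 3.55 CPM in control replicates 1 to 4. Control replicate 2 lay inside the mutant range (log2 fold change 0.15, 95% interval -0.12 to 0.41). Irf8, which acts with PU.1 in the monocyte and macrophage lineage, averaged 9.68 ± 0.303 CPM in mutant and 9.49 ± 0.264 CPM in control lungs.

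The 3 chains of complement C1q, which tissue macrophages make and which lie within 18.7 kb of each other on chromosome 4, overlapped between the groups. C1qa measured 11.6, 12.2, 10.9 and 11.6 CPM in mutant replicates 1 to 4, against 10.4, 11.4, 10.4 and 12.5 CPM in control replicates 1 to 4. C1qb measured 12.1, 11.6, 10.5 and 11.9 CPM in mutant replicates 1 to 4, against 12.5, 14.9, 13 and 11.5 CPM in control replicates 1 to 4. C1qc ranged from 11.8 to 13.3 CPM in mutant and from 11.9 to 13.8 CPM in control libraries. The log2 fold changes were 0.06 (SE 0.0837) for C1qa, -0.17 (SE 0.0874) for C1qb and -0.02 (SE 0.0784) for C1qc, whose promoter window holds the longer PU.1 motif. C1qb had the most negative value of the 3, with an adjusted p of 0.401 in edgeR. Together the 3 genes summed to 33.6 to 36.9 CPM in mutant and 34.7 to 40.1 CPM in control lungs.

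The Fc receptors and their adaptors did not pass. Tyrobp, the DAP12 adaptor that carries signals of Trem2, ranged from 3.94 to 6.13 CPM in mutant and from 4.96 to 6.23 CPM in control libraries. Fcer1g, the common gamma chain of Fc receptors, ranged from 5.18 to 8 CPM in mutant and from 5.59 to 7.33 CPM in control libraries, and in both genes mutant replicate 4 was the lowest of the 8. Trem2, a lipid-sensing receptor of macrophages and microglia, measured 3.27, 3.11, 3.07 and 2.98 CPM in mutant replicates 1 to 4, against 3.38, 3.33, 3.28 and 3.33 CPM in control replicates 1 to 4. The groups did not overlap, the nearest values being 3.27 CPM in mutant replicate 1 and 3.28 CPM in control replicate 3, and the difference failed the test (log2 fold change -0.09, SE 0.13, adjusted p = 0.814, edgeR). Fcgr3 and Fcgr1, receptors for immunoglobulin G, had log2 fold changes of 0.18 (SE 0.115) and 0.04 (SE 0.154).

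Of the lysosome and phagosome genes 3 of 4 were positive and 0 passed in edgeR, with 0 at an unadjusted p below 0.05. Cd68, a lysosomal membrane protein of macrophages, varied little, at 14.1, 14.3, 13.9 and 13.6 CPM in mutant replicates 1 to 4, against 14.3, 15.2, 14.7 and 15.3 CPM in control replicates 1 to 4. Mutant replicate 2 and control replicate 1 both measured 14.3 CPM (log2 fold change -0.09, SE 0.0683, adjusted p = 0.63). Lyz2, lysozyme M, was far more variable, at 13.9, 19.7, 9.27 and 11.5 CPM in mutant replicates 1 to 4, against 9.77, 13.1, 13 and 10.8 CPM in control replicates 1 to 4. Mutant libraries held both the highest and the lowest value of the 8 (log2 fold change 0.26, 95% interval -0.34 to 0.85), and without mutant replicate 2 the log2 fold change was 0.001. Cybb, the X-linked catalytic subunit of the phagocyte oxidase, ranged from 1.42 to 2.87 CPM in mutant and from 1.32 to 2.03 CPM in control libraries, and its log2 fold change of 0.29 was -0.001 without mutant replicate 2. Ctss, the protease cathepsin S, averaged 6.65 ± 0.841 CPM in mutant and 6.35 ± 0.366 CPM in control lungs.

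The remaining 4 macrophage-enriched genes did not pass the test. Pf4, platelet factor 4, a chemokine gene of megakaryocytes and of fetal macrophages, measured 5.64, 5.86, 6.44 and 6.08 CPM in mutant replicates 1 to 4, against 7.81, 5.81, 9.88 and 7.33 CPM in control replicates 1 to 4. Control replicate 2 lay inside the mutant range (log2 fold change -0.36, SE 0.131, adjusted p = 0.192, edgeR). This value, the largest in size of any member with all 8 libraries, was -0.22 without control replicate 3, where that of Mrc1 was -0.24. Of 9 tested megakaryocyte genes 0 passed in edgeR, 0 were at an unadjusted p below 0.05, and the median log2 fold change was 0.03, with Itgb3 at 0.03 (SE 0.0785) and Itga2b at 0.23 (SE 0.128). F13a1, the coagulation factor XIII chain made by resident macrophages, measured 21.9, 28.8, 25.2 and 18.4 CPM in mutant replicates 1 to 4, against 25.4, 33.9, 29.2 and 25.2 CPM in control replicates 1 to 4. Mutant replicate 2 lay above control replicates 1 and 4 (log2 fold change -0.25, SE 0.152, adjusted p = 0.533). The log2 fold change was -0.09 with the Y-linked covariate and -0.158 both without control replicate 2 and without mutant replicate 4. Adgre1, the F4/80 antigen, averaged 7.41 ± 0.405 CPM in mutant and 7.65 ± 0.641 CPM in control lungs, and Aif1, the calcium-binding protein IBA1, had 16 to 90 counts per library and a log2 fold change of 0.14 (SE 0.265).

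The summed level of the 31 tested members was 548, 568, 556 and 559 CPM in mutant replicates 1 to 4, against 573, 590, 616 and 590 CPM in control replicates 1 to 4. The sums did not overlap, and the mutant mean was 5.8% below the control mean. The members Stab1, Maf, Lcp1 and Csf1r held 55.1% to 58.7% of the sum in each library. Without them the remaining 27 genes summed to 231 to 255 CPM in mutant and 247 to 263 CPM in control libraries, a difference of -5.7% with overlap. No test was made of these sums, which rest on 9935 to 27731 counts per library. Each of the 8 libraries held the highest value of between 2 and 6 members.

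**Figure D3:**
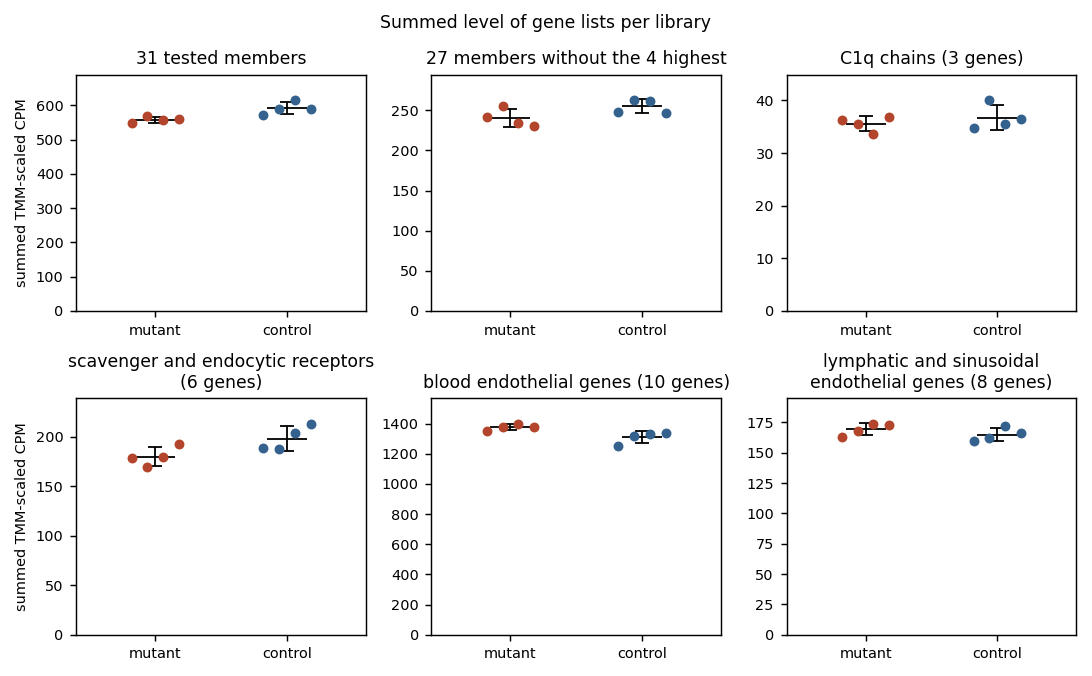
Summed TMM-scaled CPM (y axes, from 0) of 6 gene lists per library, with 4 mutant libraries left and 4 control libraries right and the mean and SD as the black bar and whiskers. The 31 tested members lie at 548 to 568 CPM in mutant and 573 to 616 CPM in control libraries, and blood endothelial genes at 1350 to 1400 CPM in mutant and 1250 to 1340 CPM in control libraries.

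Per kb of exon, the members spanned a wide range in both groups. Stab1 was the highest at 14.8 CPM per kb in mutant and 16.0 CPM per kb in control lungs, followed by Cd68 at 11.1 and 11.8, C1qb at 10.6 and 11.9 and C1qa at 11.1 and 10.8. Csf1r stood at 5.74 CPM per kb in mutant and 5.62 in control lungs, Mrc1 at 3.91 and 4.77, Adgre1 at 2.29 and 2.36 and Spi1 at 1.61 and 1.46. Ptprc was low on this scale, at 0.119 CPM per kb in mutant and 0.129 in control lungs, over an annotated exon length of 18313 bases. The order of neighbours such as Cd68, C1qb and C1qa differed between the groups.

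**Figure D4:**
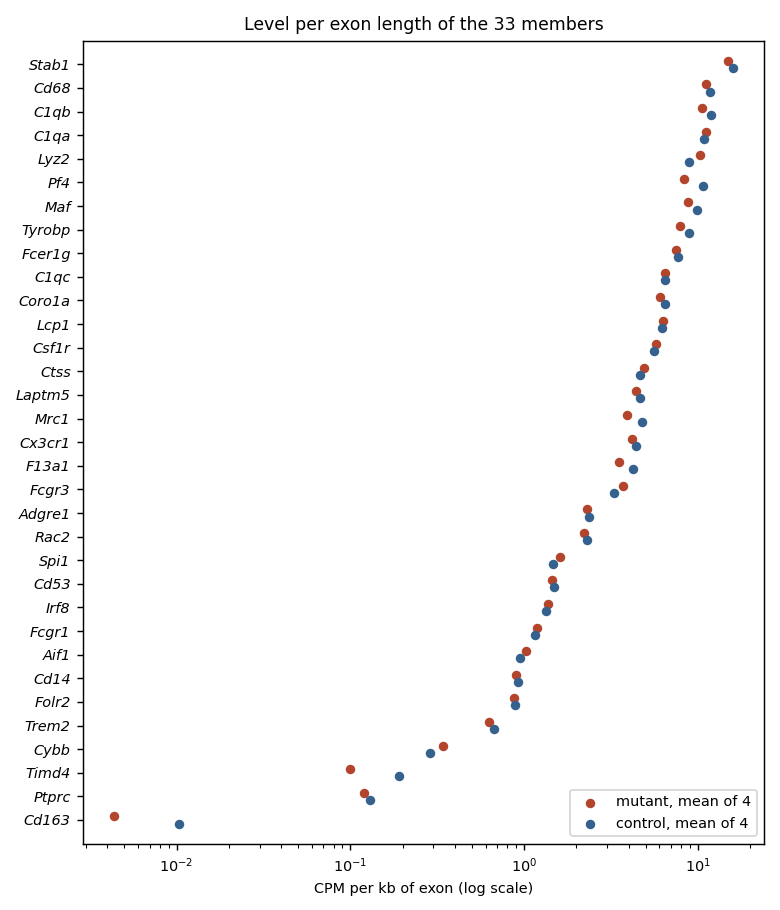
Mean CPM per kb of exon (x axis, log scale) of the 33 members in mutant (upper point of each pair) and control (lower point) lungs, n = 4 libraries each. Stab1 is the highest at 14.8 in mutant and 16.0 in control lungs, and Cd163 the lowest at 0.00438 and 0.0103.

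Of 25 tested macrophage genes outside the members, 1 fell and 24 did not pass, with a median log2 fold change of -0.04. The gene that fell was Ms4a6c, a membrane protein of the MS4A family, at 3.55, 3.91, 3.56 and 3.32 CPM in mutant replicates 1 to 4, against 5.70, 4.06, 5.48 and 6.54 CPM in control replicates 1 to 4. The groups did not overlap (log2 fold change -0.59, SE 0.14, adjusted p = 0.0429, edgeR), and the call was lost in 10 of 17 alternatives, among them 7 of the 8 that left out 1 library (adjusted p 0.00447 to 0.125 over all). Of 30 leukocyte signalling genes 0 passed in edgeR and 1 was at an unadjusted p below 0.05, with 15 negative and 15 positive. Lyn and Arhgdib, a Src family kinase and an inhibitor of small GTPases, with the highest counts of that list, had log2 fold changes of 0.07 (SE 0.0574) and -0.07 (SE 0.108). Of 6 tested inflammation and interferon genes 0 passed in edgeR, 0 were at an unadjusted p below 0.05 and 9 more had too few counts to be tested; Nfkbia and Socs3 had log2 fold changes of 0.01 and -0.06.

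Of 15 listed lymphoid genes 11 had too few counts to be tested, among them the T cell CD3 chain genes Cd3d, Cd3e and Cd3g. These 3 had at most 0.113 CPM in any library. Other genes of that list were higher. Lck ranged from 6.53 to 7.61 CPM in mutant and from 6.43 to 7.72 CPM in control libraries (log2 fold change -0.02, SE 0.101). Cd79b and Cd79a averaged 1.20 and 0.723 CPM in mutant and 0.998 and 0.641 CPM in control lungs. Of 5 tested mast cell genes 0 passed in edgeR, and the median log2 fold change was -0.42. The 3 at an unadjusted p below 0.05 in edgeR were Cma1 and Cpa3, which were negative, and Gata2, which was positive. Kit and Gata2, the highest of the list and expressed by other cells too, had log2 fold changes of 0.11 and 0.19. Of 8 tested monocyte and granulocyte genes 0 passed in edgeR, and the list's median log2 fold change was 0.68, with 6 positive and 2 negative. The 2 at an unadjusted p below 0.05 had opposite signs: the monocyte chemokine receptor gene Ccr2 at 0.73 (SE 0.296, adjusted p = 0.272) and Plac8 at -0.23 (SE 0.1, adjusted p = 0.296). S100a9 had a log2 fold change of 0.64 (SE 0.751). Of 10 red blood cell genes 1 rose, Hbb-bh1, an embryonic globin gene whose reads can be shared with other globins (log2 fold change 0.72, SE 0.119, adjusted p = 0.00443), which failed in 2 of 17 other settings (4.27e-08 to 0.314 over all). The list's other gene at an unadjusted p below 0.05, Hbb-bt, was negative (log2 fold change -0.36, SE 0.14, adjusted p = 0.331, edgeR). The fetal liver genes Afp and Alb had log2 fold changes of 0.45 (SE 0.6) and 0.99 (SE 0.898), with mutant replicate 4 the highest in both, at 11.7 and 7.88 CPM.

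**Figure D5:**
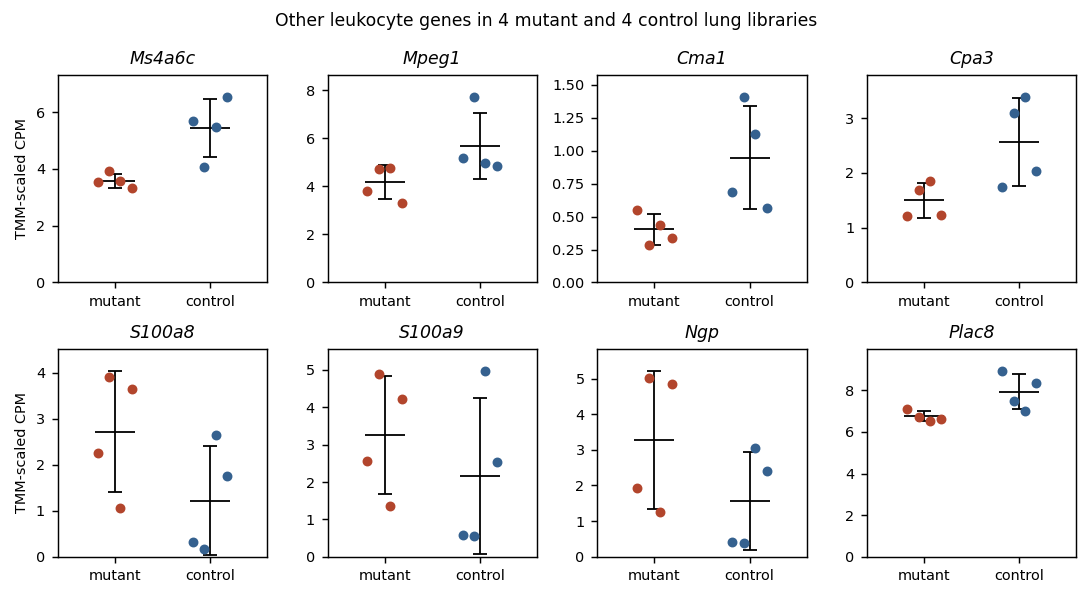
TMM-scaled CPM (y axes, from 0) of 8 genes of macrophages, mast cells, monocytes and granulocytes outside the members in mutant (left, 4 points) and control (right, 4 points) libraries, with the mean and SD as the black bar and whiskers. Ms4a6c lies at 3.32 to 3.91 CPM in mutant and 4.06 to 6.54 CPM in control libraries, and the neutrophil genes S100a8, S100a9 and Ngp spread widely within both groups.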

How the data were processed

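RNA of embryonic lung was prepared as 8 libraries with Illumina's stranded mRNA kit, per the labels' protocols. The authors deposited 1 table of raw, unnormalized counts, 1 row per gene. Per the file headers, the counts came from featureCounts 1.6.4 with strand option 2, over exons of GENCODE vM25, and reads that map to several places or overlap several genes were not counted, so genes with close paralogs (Fcgr3, Ms4a6c, the globins) can be undercounted. The submitters' processing notes name STAR, DESeq2 and GRCm38. The same deposited table gives the exon length of each gene in bases.

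Mutant was compared with control in 1 fit of all 8 libraries with edgeR 4.0.16 (R 4.3.3): expression filter, TMM scaling, robust quasi-likelihood F test, two-sided, Benjamini-Hochberg adjustment over 15788 genes, threshold 0.05. These genes held 99.9% of the counts. Promoter windows came from RefSeq; those of 2 members on chromosome 18 were not used. CPM values are TMM-scaled, SE belongs to the log2 fold change, and intervals are 95%. Levels per kb divide mean CPM by the exon length. Xist and Y-linked levels are TMM-scaled CPM as well, and Y-linked genes are Ddx3y, Eif2s3y, Kdm5d and Uty. The steps were tested on simulated data. Libraries within a group differed by 2.92 to 8.91 times the sampling variance, so none was a duplicate.

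The members and lists were chosen with earlier results of these data known. From other lists the called genes were named, up to 3 by smallest p, or the 2 with the highest mean CPM where none was called. Lyve1, Stab2, Ccr2, Tgfb1, Csf1, Il34, Cx3cl1, Mpeg1, Cma1, Cpa3, S100a8, Ngp, Cd3d, Cd3e and Cd3g were named outside this rule, after their values were seen, and 1 gene that the rule takes is not reported here. Each result was recomputed under up to 17 alternatives: RLE size factors, no count filter, a mean of at least 1 CPM, DESeq2 1.42.0, limma-voom (limma 3.58.1), no robust estimation, a block, the level of Y-linked genes as covariate, each library left out, and the 4 libraries where Xist and Y-linked genes were both found, the last chosen after seeing the data.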

Additional observations from a re-analysis of the deposited data

Results flagged for a closer look

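In 62 groups of 4 libraries, 31 members in mutants and in controls, 6 had 1 library whose gap to its nearest neighbour passed Dixon's 95% critical value, as a share of the group's range; chance gives about 1 in 20. Control replicate 4 was the library standing apart in 3 of them: Laptm5 was 14.6 CPM there and 18.2 to 18.8 CPM in the other controls, Tyrobp 4.96 against 6.16 to 6.23 CPM, and Fcgr3 4.74 against 5.91 to 6.10 CPM. Maf was 92.2 CPM in control replicate 3 and 76.8 to 79.2 CPM in the other controls. Ptprc was 1.89 CPM in mutant replicate 2 and 2.24 to 2.31 CPM in the other mutants, and Irf8 was 10.1 CPM in mutant replicate 1 and 9.51 to 9.57 CPM in the other mutants.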

How the results depend on the processing

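Over the alternatives the members' median log2 fold change stayed between -0.06 and -0.02, and 0 members were called higher in each. Of 527 member values under alternatives, 484 kept sign and call. The number of genes called, 236, was 791 with no count filter, 380 in DESeq2, 142 without robust estimation, 97 with the Y-linked covariate, 87 in the 4 libraries where Xist and Y-linked genes were both found, and 96 to 479 with 1 library left out. Members called lower numbered 2 with no filter (Mrc1 and Maf, adjusted p 0.00849), 0 without robust estimation, 0 with the covariate, 0 in the 4 libraries, and 0 to 1 with 1 library left out. With the replicate block 541 genes were called in either direction, and 3 members were called lower (Mrc1, Maf, adjusted p 0.0161, and F13a1, 0.0217), whereas the covariate gave Maf -0.102 (adjusted p 0.647) and F13a1 -0.09 (0.93), and the 4 libraries gave Maf -0.043 (0.929), F13a1 -0.203 (0.746) and Pf4 -0.269 (0.688), beside Mrc1 at -0.288. To look for pairing, each gene's group mean was subtracted from its log2 CPM, and the remaining deviations were correlated between mutant and control libraries. These deviations correlated at 0.081, 0.065, 0.181 and 0.012 in same-numbered libraries. They are not correlations of the expression levels themselves. By this measure mutant replicates 2 and 3 correlated best with the control of the same number. Mutant replicate 1 correlated best with control replicate 4 (0.133) and mutant replicate 4 with control replicate 1 (0.021). The numbers are not taken to pair the libraries. The cause of these shifts was not tested. Signs turned as follows, on the log2 scale. Folr2 was 0.011 with no filter and 0.027 in limma-voom. With the covariate Laptm5 was 0.039, C1qc 0.041, Fcgr1 -0.11 and Folr2 0.261. In the 4 libraries Laptm5 was 0.1, C1qa -0.019, C1qc 0.073, Fcgr1 -0.005, Folr2 0.162, Ctss -0.097, Aif1 -0.2 and Arhgdib 0.063. With 1 library left out the log2 fold change ran from -0.079 to 0.013 for Adgre1, -0.171 to 0.683 for Afp, -0.025 to 0.314 for Aif1, -0.153 to 0.018 for Arhgdib, -0.052 to 0.026 for C1qc, -0.104 to 0.027 for Cd14, -0.126 to 0.039 for Cd53, -0.001 to 0.417 for Cybb, -0.135 to 0.053 for Fcer1g, -0.053 to 0.093 for Fcgr1, -0.115 to 0.112 for Folr2, -0.009 to 0.061 for Itgb3, -0.014 to 0.07 for Lcp1 and -0.061 to 0.084 for Nfkbia. The difference in summed level ranged from -6.83% to -3.86%. Cd163 and Timd4 had too few counts to be tested.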

Other observations

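Mast cell proteases and the macrophage gene Mpeg1 had lower mean values in mutant lungs, and none of the 3 named here passed the test. Cma1, a chymase, measured 0.552, 0.287, 0.439 and 0.338 CPM in mutant replicates 1 to 4, against 0.686, 1.41, 1.13 and 0.564 CPM in control replicates 1 to 4. The groups did not overlap, on 6 to 25 counts per library (log2 fold change -1.26, SE 0.351, adjusted p = 0.0779, edgeR). Cpa3, a carboxypeptidase of mast cells, ranged from 1.22 to 1.85 CPM in mutant and from 1.74 to 3.39 CPM in control libraries (log2 fold change -0.75, SE 0.226, adjusted p = 0.103). Mpeg1, the pore-forming perforin-2 of macrophages, ranged from 3.32 to 4.78 CPM in mutant and from 4.85 to 7.72 CPM in control libraries without overlap (log2 fold change -0.43, SE 0.16, adjusted p = 0.22).

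The neutrophil genes S100a8 and Ngp spread widely between libraries of both groups. S100a8, a calcium-binding protein of neutrophils, measured 2.25, 3.91, 1.07 and 3.66 CPM in mutant replicates 1 to 4, against 0.317, 0.169, 2.65 and 1.75 CPM in control replicates 1 to 4. Ngp, neutrophilic granule protein, measured 1.93, 5.02, 1.27 and 4.84 CPM in mutant replicates 1 to 4, against 0.422, 0.395, 3.05 and 2.42 CPM in control replicates 1 to 4. Control replicates 1 and 2 were the lowest libraries in both genes, and the groups overlapped (log2 fold changes 1.20, SE 0.766, for S100a8 and 1.10, SE 0.77, for Ngp).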
